A study of Mus musculus with 12 samples.

Results

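Ly6g6c and 8 further genes of the mouse Ly6 family (Ly6g6e, Ly6e, Ly6h, Ly6a, Ly6c1, Ly6c2, Ly6d and Lynx1) were followed in sorted pituitary cells through treatment with dexamethasone (DEX) and its withdrawal. All 9 were found by their symbols among the 55304 genes of the deposited table. The group was chosen by the value of Ly6g6c, which overshot 1 week after withdrawal, so its values in that group are given as a description with no test. The cells came from male Pomc-eGFP mice, a transgenic line on a C57Bl6/J background in which the Pomc promoter drives a green fluorescent protein, and the mice were 8 weeks old, by the study's methods, before 2 weeks of acclimatisation and the treatment. Control mice drank water only. The DEX group drank 2.5 µg/ml DEX, a synthetic glucocorticoid, for 4 weeks, and the withdrawal groups had the same 4 weeks of DEX followed by 7 days (1 week) or 28 days (4 weeks) without it. Each group had 3 libraries (n = 3), each made from a pool of anterior pituitaries from 1 cage, of 3 pituitaries by the series design and 2 or 3 by the study's text. A p-value here therefore measures the spread between pools of mice, not between single mice.

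Ly6 proteins are small extracellular proteins built on a disulphide-rich fold called the LU domain, and most are held at the outer face of the cell membrane by a glycosylphosphatidylinositol (GPI) anchor. The family is best known from blood and endothelial cells, where Ly6a (Sca-1) and the Ly6c proteins serve as surface markers, and from neurons, where Lynx1 and Ly6h act on nicotinic acetylcholine receptors. In the pituitary, corticotrophs make the Pomc precursor of ACTH, and glucocorticoids lower its transcription. The study asked how the transcriptome of these cells recovers after DEX is withdrawn.

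Ly6g6c (ENSMUSG00000092586) lies on chromosome 17 of GRCm38, from 35065388 to 35070050 on the plus strand, in the class III region of the major histocompatibility complex. Its GENCODE exons cover 1367 bases in 3 merged blocks. Ly6g6e (ENSMUSG00000013766) lies next to it, from 35076902 to 35078804 on the same strand. The other members lie on chromosome 15. Of the 9 genes, Ly6c1, Ly6c2 and Ly6g6c have a promoter in the RefSeq table used here, and the one of Ly6g6c is printed below because this gene differed most between groups. It spans 250 bases before and 50 bases after the RefSeq start site (chr17:35067075-35067374, GRCm38.p6, plus strand), which lies inside the GENCODE gene. Capitals mark the 1 match found among the motifs searched on both strands.
Ly6g6c promoter: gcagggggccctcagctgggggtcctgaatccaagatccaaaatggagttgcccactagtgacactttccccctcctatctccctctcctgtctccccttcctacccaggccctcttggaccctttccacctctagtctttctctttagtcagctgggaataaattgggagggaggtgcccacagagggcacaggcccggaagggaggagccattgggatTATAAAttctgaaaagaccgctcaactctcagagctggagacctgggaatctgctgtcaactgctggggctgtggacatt
The match was to the TATA box letters TATAAA, 30 bases before the start site, and 13.6% of the 32851 promoters in the table hold these letters. No match was found for the letters searched for a glucocorticoid receptor half-site (TGTTCT, held by 19.0% of promoters), the inverted repeat glucocorticoid response element (0.00913%), the NGFI-B element (AAAGGTCA, 1.51%), the AP-1 site (TGANTCA, 7.81%), the cAMP response element core (TGACGT, 7.51%) or the core of a T-box site as bound by Tpit (AGGTGT, 13.7%). A half-site is contained in the inverted repeat, and a match or its lack is only a description of this window.

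Values are normalised counts, that is, CPM on an effective library size, and 1 read was worth 0.0787 to 0.127 of them. Reads on genes numbered 7719894 to 12848078 in the 12 libraries. The floor was set at 3 reads, corresponding to 0.236 to 0.382 normalised counts, and a gene was at the floor in a group where no library exceeded it. Tests were made with limma on log2(normalised count + 0.1) of the 24736 genes above 0.1 in at least 3 libraries, and fold changes on this scale understate the change of low genes. In these bulk libraries, fewer cells of a type and less RNA per cell cannot be told apart. Corticotroph markers were detected in every group, with Pomc at 34562 to 74260 in control pools and 4241 to 8521 in DEX pools. The melanotroph factor Pax7 was at 0 in 7 of the 12 libraries and never above 0.336. Pcsk2, which the study also used as a melanotroph marker, was 38.3 to 130 across pools. The sum of 4 melanotroph genes was 68.4 to 175, and both were highest in pool 2 at 1 week. The hormone genes of other pituitary cells, Gh and Prl, were abundant in every library, and markers of endothelial, connective tissue and blood cells were detected too. The sum of the somatotroph genes Gh and Ghrhr was 78973 to 221365 in control pools and 67667 to 104322 in DEX pools. It exceeded Pomc in every pool except pools 1 and 2 at 1 week. Prl was 48110 to 73317 in DEX pools, above Pomc in each. In control pools Prl was 31497.5 to 78966.5, below Pomc in pool 1 and above it in pools 2 and 3.

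Ly6g6c was barely present in control and DEX pools, was high 1 week after withdrawal and had come most of the way down by 4 weeks. In control pools it was 1.18, 0.825 and 0.979, from 15, 7 and 9 reads. In DEX pools it was 0.580, 0.327 and 0, from 7, 4 and no reads. At 1 week it reached 25.6, 90.4 and 20.7, from 269, 709 and 186 reads, and the highest of these was pool 2. At 4 weeks it was 3.42, 2.08 and 5.50, from 37, 19 and 61 reads. No group overlapped another, and the order of levels was DEX, control, 4 weeks and 1 week. All 4 groups were separate in 0.0202% of all genes, and in this order in 0.0121%, namely Ly6g6c, Scg3 and Tspan13. The choice of Ly6g6c used this pattern in part, so nothing is read from these shares. The study also listed Ly6g6c among genes it chose from these libraries.

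On the log2 scale, Ly6g6c 1 week after withdrawal lay 5.07 ± 0.71 (SE) above control and 6.89 ± 0.71 above DEX, the highest difference of all genes tested in each comparison. These values chose the gene and carry no test. The difference of 4 weeks minus 1 week was -3.38 ± 0.71, the second lowest of all genes, and is likewise a description. The other 3 comparisons share control, DEX or 4 week libraries with those that chose the gene, so their p-values are not independent of the choice and nothing is read from them. Ly6g6c was -1.82 ± 0.71 in DEX against control (limma adjusted p = 0.605) and 1.69 ± 0.71 at 4 weeks against control (adjusted p = 0.754), so neither neighbour of control in the order of levels passed the threshold of 0.05, although the pools did not overlap. The difference at 4 weeks against DEX was 3.51 ± 0.71 (limma adjusted p = 0.0290), with means of 3.67 ± 1.73 and 0.302 ± 0.291 (SD, n = 3). The 3 DEX libraries in it are those of the difference of 6.89 above.

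The adjusted p of Ly6g6c at 4 weeks against DEX went over 0.05 when any 1 of the 3 DEX pools or the 3 pools at 4 weeks was left out (0.0529 to 0.159). It also did so with a pseudocount of 0.5 (adjusted p = 0.0566) or 1 (adjusted p = 0.117), and in a model of these 2 groups alone (adjusted p = 0.130), while edgeR's quasi-likelihood test on the recovered reads kept it under 0.05 (adjusted p = 0.0295). Because Ly6g6c was chosen on these libraries, nothing is read from any of these fits.

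**Figure D1:**
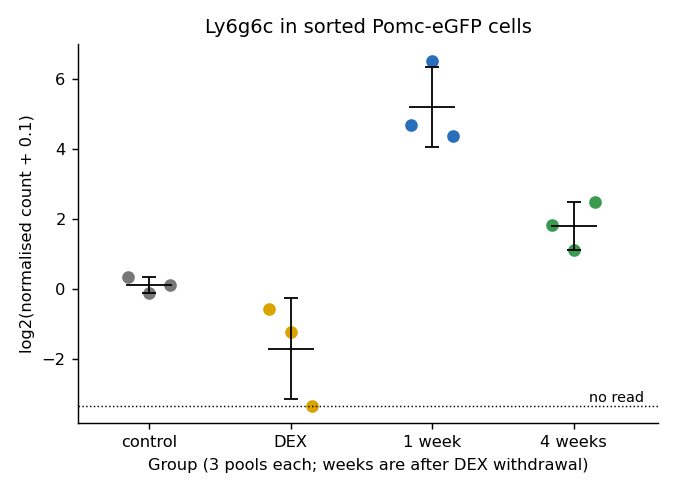
Ly6g6c in each pool (points) on the log2(normalised count + 0.1) scale, with the group mean and SD of the log2 values (line and bars, n = 3), and a dotted line at the value of a library with no read. The 3 pools at 1 week (20.7 to 90.4 normalised counts) lie above those at 4 weeks (2.08 to 5.50), control (0.825 to 1.18) and DEX (0 to 0.580).

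Pomc was also highest in 2 of the 3 pools at 1 week, and the summed proliferation genes in all 3. Pomc was 149459, 284740 and 43612 normalised counts in the 3 pools at 1 week and 48189 to 80216 at 4 weeks. Pool 2 at 1 week had the highest value of both Pomc and Ly6g6c. Per 1000000 normalised counts of Pomc, Ly6g6c was 13.2 to 23.9 in control pools, 0 to 133 in DEX pools, 171 to 474 at 1 week and 43.2 to 69.0 at 4 weeks, so the ratio at 1 week lay above that of every other group. Pool 3 at 1 week, with Pomc inside the range of control pools, had the highest ratio.

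The sum of 8 proliferation genes was 4.72 to 9.02 in control pools, 2.65 to 4.66 in DEX pools, 77.4, 37.5 and 20.9 at 1 week and 5.64 to 17.0 at 4 weeks. All 8 were detected in every group. Top2a, Ccnb1, Ccnb2 and Pbk of these 8 were called higher at 1 week against DEX, and none was called at 4 weeks against DEX. Over all genes, 0.433% and 0.873% were called there in either direction. The study had already listed Top2a, Ccnb1, Ccnb2 and Pbk from these libraries, so the count is not independent of that list. The highest sum at 1 week was in pool 1 and not in pool 2, where Ly6g6c was highest. The part of Pomc level, sorting or dividing cells in the Ly6g6c values was not tested.

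**Figure D2:**
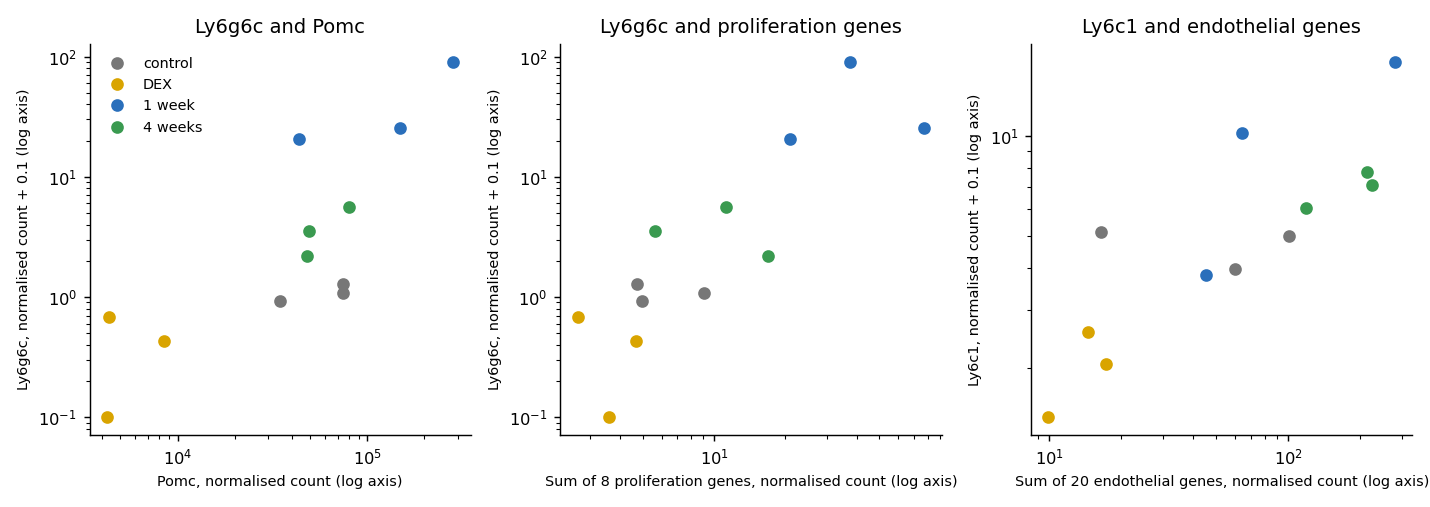
Each point is a pool, coloured by group, on log axes: Ly6g6c against Pomc (left), Ly6g6c against the summed normalised counts of 8 proliferation genes (middle), and Ly6c1 against the sum of 20 endothelial genes (right), with 0.1 added to the Ly6 gene. The pools at 1 week hold the 3 highest Ly6g6c values in both plots, and the highest Ly6c1 value (16.6) is in the pool with the highest endothelial sum (280).

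Ly6g6e, the neighbour of Ly6g6c, did not share its pattern. It was 0.236, 0.118 and 0.652 in control pools, 1.08, 1.14 and 3.25 in DEX pools, 0, 0.765 and 1.45 at 1 week, and 0.277, 0.547 and 0.902 at 4 weeks. DEX pools were the highest group and lay above all control pools and all pools at 4 weeks, while 1 week overlapped every group. The difference of DEX from control was 2.16 ± 0.92 on the log2 scale (limma adjusted p = 0.686). The most reads of any library was 29, and 17.99% of its exon bases are shared with Ly6g6d on the opposite strand. The library kit does not mark strand, so reads of these 2 genes cannot be told apart there. For Ly6g6c the shared stretch with antisense Mpig6b was 22 bases, 1.61% of its exons.

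Of the members linked to blood and vessel cells, Ly6a, Ly6c1 and Ly6e were higher in every pool at both withdrawal times than in any DEX pool, without passing the threshold. Over all genes, 6.97% at 1 week and 9.8% at 4 weeks had all pools above DEX. Ly6c2 overlapped DEX at 4 weeks, and Ly6d was not tested. Ly6a (chromosome 15, 74994877 to 74998031), the Sca-1 antigen of stem and endothelial cells, was 3.38, 9.66 and 15.4 in control pools and 10.8, 8.75 and 5.49 in DEX pools. It was 12.9, 18.4 and 38.1 at 1 week and 23.6, 27.7 and 34.1 at 4 weeks. The pools at 4 weeks lay above all control and DEX pools, while control and DEX overlapped. The differences at 4 weeks were 1.80 ± 0.49 from control (limma adjusted p = 0.522) and also 1.80 ± 0.49 from DEX (adjusted p = 0.113). Array weights, edgeR's likelihood ratio test and DESeq2 each called the latter, as did the fit without control pool 1 (adjusted p = 0.0469).

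Ly6c1 (chromosome 15, 75044018 to 75048830), a surface protein of endothelial cells in many mouse tissues, was 5.04, 3.89 and 4.89 in control pools and 1.33, 1.962 and 2.47 in DEX pools. It was 3.71, 10.1 and 16.6 at 1 week and 7.67, 7.01 and 5.96 at 4 weeks. DEX pools were below all others and pools at 4 weeks were above all control pools, whereas pool 1 at 1 week lay below the controls. The difference from DEX was 2.14 ± 0.48 at 1 week (limma adjusted p = 0.0646) and 1.82 ± 0.48 at 4 weeks (adjusted p = 0.0980). At 1 week it was called by edgeR's quasi-likelihood test (adjusted p = 0.0321) and by limma without pool 1 of that group (adjusted p = 0.0110). At 4 weeks limma called it without pool 1 (adjusted p = 0.0415) or pool 3 (adjusted p = 0.0420) of the 1 week group. It was also called there in 3 of 13 other fits. These were limma with array weights (adjusted p = 0.00579), edgeR's likelihood ratio test (0.0235) and DESeq2 (0.0124).

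Ly6e (chromosome 15, 74955051 to 74959905), an interferon-inducible protein that affects virus entry, was among the abundant members. It was 265, 291 and 537 in control pools and 242, 325 and 347 in DEX pools. At 1 week it was 422, 738 and 531, and at 4 weeks 454, 475 and 623. Both withdrawal groups lay above DEX but overlapped control through control pool 3. The difference from DEX was 0.87 ± 0.32 at 1 week (limma adjusted p = 0.300) and 0.77 ± 0.32 at 4 weeks (adjusted p = 0.412). Only limma with array weights, 1 of 13 other fits, called the latter (adjusted p = 0.0401).

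Markers of endothelial cells were higher at both withdrawal times than in DEX, as were these members. In DEX against control they differed. The median log2 difference of 20 endothelial genes there was -1.68, beside -1.25 for Ly6c1, -0.20 for Ly6e and 0.0088 for Ly6a. The sum of 20 endothelial genes was 16.5 to 101 in control pools, 9.94 to 17.3 in DEX pools, 45.4, 63.7 and 280 at 1 week, and 118 to 225 at 4 weeks. All 20 were detected in the control and withdrawal groups, and Erg was at 0 in DEX. Of the 20, 9 were called higher at 4 weeks against DEX and 2 at 1 week against DEX. Over all genes, 0.873% and 0.433% were called there in either direction. The 2 called at 1 week, Kdr and Aplnr, and also Pecam1 and Adgrl4, were among genes the study had listed from these libraries. The counts are thus not independent of that list. Pecam1 was 0.224 to 0.491 in DEX pools and 4.24 to 12.2 at 4 weeks. Pool 3 at 1 week, which had the highest Ly6a, Ly6c1 and Ly6c2 of its group, also had the highest endothelial sum, but Ly6e was highest in pool 2 (738). Control pool 1, with an endothelial sum of 16.5 inside the DEX range, had the highest Ly6c1 of the control pools (5.04). Other markers were higher at 4 weeks than in DEX too. The sum of 2 somatotroph genes, Gh and Ghrhr, was 67667 to 104322 in DEX pools and 150409 to 265990 at 4 weeks. Prl was 48110 to 73317 and 86332 to 119783, and no gene of these was called. The sum of 4 gonadotroph genes overlapped (370 to 806 and 665 to 988). The sum of 11 stem and folliculostellate genes was 260 to 301 in DEX pools and 403 to 506 at 4 weeks, with Cpxm2 called higher, and that of 3 thyrotroph genes was 50.7 to 263 and 462 to 728, with Tshb called higher. The sum of 10 fibroblast and pericyte genes was 77.9 to 120 in DEX pools and 187 to 303 at 4 weeks, where Col3a1, Pdgfrb and Mfap4 were called higher than in DEX. Cpxm2, Col3a1, Pdgfrb and Mfap4 were also on the study's list. Of 12 macrophage and monocyte genes, whose sum was 25.5 to 38.4 in DEX pools and 42.8 to 97.4 at 4 weeks, none was called in either comparison with DEX. The sum of 10 interferon response genes was 48.3 to 54.7 in control pools, 37.0 to 44.6 in DEX pools, 58.7 to 78.1 at 1 week and 68.8 to 96.8 at 4 weeks, and Bst2 was the 1 gene of these called at 4 weeks against DEX. The part of these cells in the values of Ly6a, Ly6c1 and Ly6e was not tested.

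Ly6c2 and Ly6d were at or near the limit of detection. Ly6c2, the form found on monocytes, had 1, 0 and 0 reads in control pools and none in DEX pools. It had 2, 2 and 11 reads at 1 week and 1, 2 and 0 at 4 weeks. Against the floor, its mean at 1 week was at least 1.57-fold higher than control and at least 1.65-fold higher than DEX, through pool 3. It passed the filter mainly through the 3 pools at 1 week, so no support is drawn from its tests. Ly6d, a marker of early B cells and of keratinocytes, had 1, 2 and 3 reads in pool 1 of the DEX, 1 week and 4 week groups and none elsewhere, so it did not pass the filter and was not tested. Of the 50-base windows in Ly6c2 transcripts, 30.8% also occur in Ly6c1, and 25.6% of those in Ly6c1 and 17.7% of those in Ly6a occur in another family gene. As reads with low mapping quality were left out, counts of these 3 genes are uncertain.

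**Figure D3:**
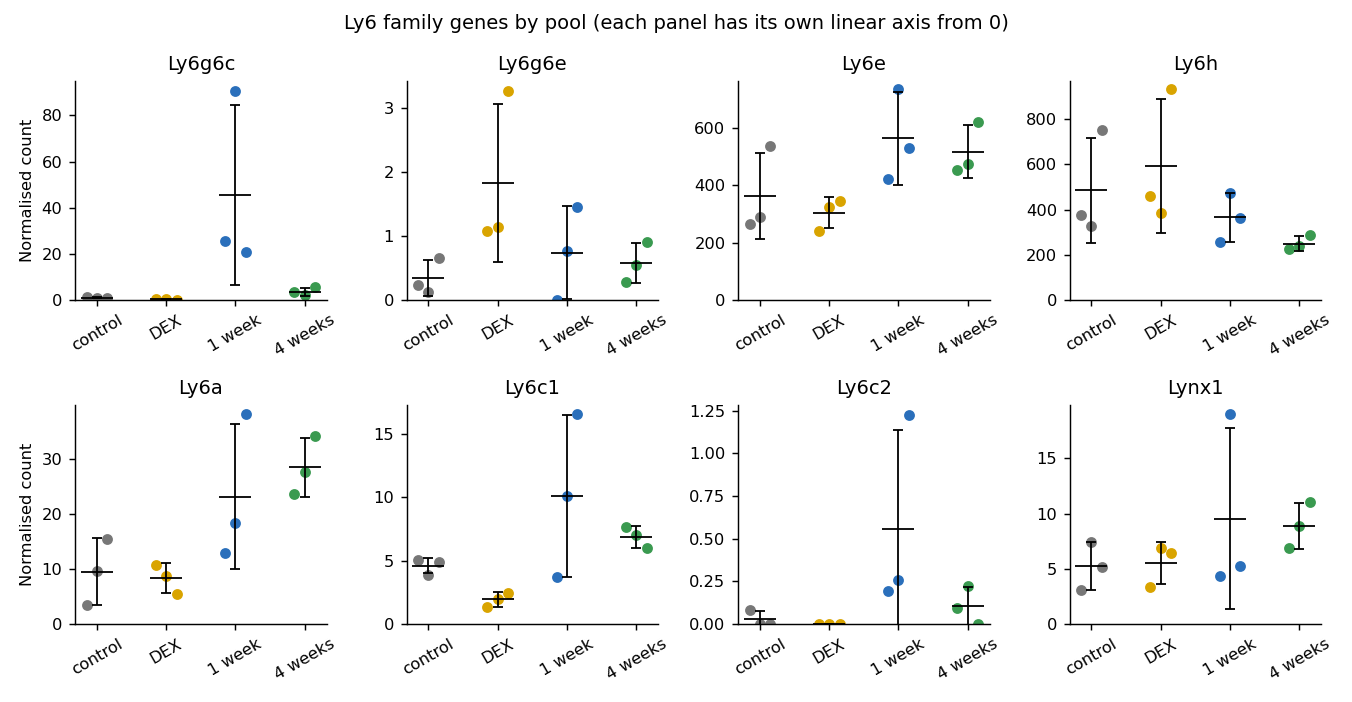
Normalised counts of the 8 tested members in each pool (points), with the mean and SD (line and bars, n = 3, cut at 0), on a linear axis of its own for each gene. Ly6g6c, Ly6e, Ly6a and Ly6c1 are higher in all pools at 4 weeks than in any DEX pool, and Ly6g6e and Ly6h are lower. Over all genes, 19.5% have all pools at 4 weeks on one side of DEX, and Ly6g6c was chosen on these libraries.

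Ly6h and Lynx1 are the members known for acting on nicotinic acetylcholine receptors. Ly6h (chromosome 15, 75551268 to 75567255), an abundant member, was 376, 329 and 752 in control pools, 460, 386 and 934 in DEX pools, 257, 476 and 364 at 1 week, and 226, 237 and 287 at 4 weeks. It was lowest at 4 weeks, where all pools lay below every control and DEX pool. The difference at 4 weeks was -1.14 ± 0.38 from DEX (limma adjusted p = 0.221) and -0.87 ± 0.38 from control (adjusted p = 0.758). Against DEX it was called by edgeR's likelihood ratio test (adjusted p = 0.0438) and when values were scaled by reads on genes alone (adjusted p = 0.0482), a scaling under which the median of all genes was -0.25 in this comparison. Lynx1 (chromosome 15, 74747852 to 74753046), which restrains these receptors in neurons, was 3.07, 7.42 and 5.11 in control pools, 3.31, 6.87 and 6.39 in DEX pools, 4.37, 19.0 and 5.23 at 1 week, and 6.84, 8.87 and 11.01 at 4 weeks. All groups overlapped, with the highest value in pool 2 at 1 week, and the difference of 4 weeks from control was 0.83 ± 0.52 (limma adjusted p = 0.854).

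Levels between members are comparable only per length. Per kilobase of merged exons, the mean normalised count in control pools was 115 for Ly6h, 96.2 for Ly6e, 7.88 for Ly6a, 2.75 for Ly6c1, 1.12 for Lynx1, 0.727 for Ly6g6c and 0.263 for Ly6g6e. At 1 week it was 149 for Ly6e, 86.5 for Ly6h, 33.3 for Ly6g6c and 19.2 for Ly6a. At 4 weeks Ly6g6c stood at 2.68 per kilobase, between Ly6c1 at 4.10 and Lynx1 at 1.91. Ly6g6c thus went from the sixth of the members to the third and then to the fifth.

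Family counts are given over 6 members (Ly6g6e, Ly6e, Ly6h, Ly6a, Ly6c1 and Lynx1), leaving out Ly6g6c, which was chosen on these libraries, and Ly6c2, which passed the filter through the pools where it was high. Limma called none of the 6 in any comparison. It called 0 of 6 at 4 weeks against DEX, where 0.873% of all genes were called. An unadjusted p under 0.05 was reached by 4 (Ly6e, Ly6h, Ly6a and Ly6c1), beside 9.94% of all genes. All 3 pools lay on one side of DEX for 5 of the 6, beside 19.5% of all genes. Of these, 3 were higher (Ly6e, Ly6a and Ly6c1, beside 9.8% of all genes) and 2 lower (Ly6g6e and Ly6h, beside 9.67%).

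In DEX against control, limma called 0 of 6 and 0.121% of all genes. An unadjusted p under 0.05 was reached by 2 members, Ly6g6e and Ly6c1, beside 6.8% of all genes, and both had separate pools, beside 12.8%. At 4 weeks against control it called 0 of 6 and 0.0% of all genes. There, 2 members (Ly6h and Ly6a) had an unadjusted p under 0.05, beside 6.35% of all genes, and 3 (Ly6h, Ly6a and Ly6c1) had separate pools, beside 13.2%.

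At 1 week against control, limma called 0 of 6 and 0.0% of all genes. Ly6a had an unadjusted p under 0.05, beside 3.79% of all genes, and 0 of the 6 had separate pools, beside 6.08%. At 1 week against DEX it called 0 of 6 and 0.433% of all genes. Ly6e, Ly6a and Ly6c1 had an unadjusted p under 0.05, beside 10.8% of all genes, and these 3 had separate pools, beside 13.8% in either direction and 6.97% higher. At 4 weeks against 1 week it called 0 of 6 and 0.0% of all genes, with 0 at an unadjusted p under 0.05 (5.47% of all genes) and 0 with separate pools (8.92%). The F test across the 4 groups called 0 of 6 and 0.315% of all genes, with 4 members (Ly6e, Ly6h, Ly6a and Ly6c1) at an unadjusted p under 0.05 (9.21% of all genes).

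In DEX against control, 1 week against control and 4 weeks against 1 week, none of the other tools run called a member either. At 1 week against DEX, edgeR's quasi-likelihood test and DESeq2 called Ly6c1, edgeR's likelihood ratio test called Ly6a and Ly6c1, and limma with array weights called Ly6g6e. Across the 4 groups, DESeq2, the likelihood ratio test and array weights called Ly6a and Ly6c1, and at 4 weeks against control the last 2 of these called Ly6a. The comparisons with control share the control libraries and those with DEX share the DEX libraries, so their values are not independent of each other.

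**Figure D4:**
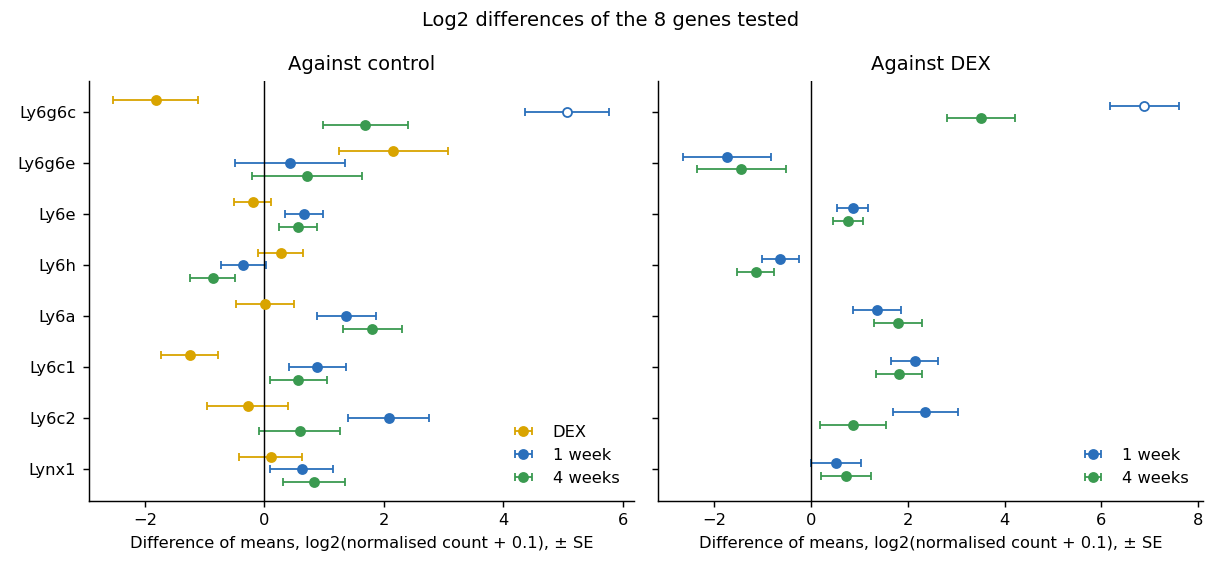
Difference of group means on the log2(normalised count + 0.1) scale with its limma SE, for each tested member against control (left) and against DEX (right), where open points are the Ly6g6c differences that chose the gene. Ly6g6c stands at 5.07 and 6.89 at 1 week, and Ly6g6e and Ly6h are the 2 genes with negative differences from DEX at both withdrawal times.

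Of 49 other genes of the LU domain family, 44 were listed, 36 had a read and 23 were tested. The F test called Lypd1 among them, beside 0.315% of all genes. Of the 23, 1 was called in DEX against control, 1 at 1 week against DEX and 2 at 4 weeks against DEX. The shares of all genes called in these 3 comparisons were 0.121%, 0.433% and 0.873%. The median log2 difference of the 23 was -0.21 in DEX against control (all genes -0.022), 0.24 at 1 week against DEX (all genes 0.029) and 0.28 at 4 weeks against DEX (all genes 0.0021). Lypd1 (chromosome 1, 125867622 to 125913101), also known as Lynx2 and a binding partner of nicotinic receptors, was 8.26, 8.60 and 3.04 in control pools and 34.5, 21.6 and 72.8 in DEX pools. It was 7.98, 4.59 and 7.45 at 1 week and 7.30, 9.30 and 8.57 at 4 weeks. The DEX pools stood apart, and the control and withdrawal groups overlapped. Lypd1 rose by 2.63 ± 0.46 on the log2 scale in DEX against control (limma adjusted p = 0.0333). Relative to DEX it fell by 2.53 ± 0.46 at 1 week (limma adjusted p = 0.0215) and by 2.17 ± 0.46 at 4 weeks (adjusted p = 0.0393), and these 3 comparisons share libraries.

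The call of Lypd1 in DEX against control was lost in 8 of the 12 fits that left out 1 pool, with an adjusted p of 0.0557 to 0.310. The highest of these was without DEX pool 3, and the others were without any 1 control pool, DEX pool 1 or any 1 pool at 4 weeks. At 1 week against DEX the call was lost without DEX pool 1, DEX pool 3 or pool 2 at 1 week (adjusted p of 0.0685 to 0.147), and at 4 weeks against DEX without DEX pool 1, DEX pool 3 or any 1 pool at 4 weeks (adjusted p of 0.132 to 0.209). Models of the 2 groups alone ended all 3 calls (adjusted p = 0.380, 0.276 and 0.0948 by limma). Its exons share 17.1% of their bases with Gpr39 on the opposite strand, so the 2 genes cannot be told apart there. The study also listed Lypd1 among genes it chose from these libraries. Lypd6, a relative chosen here after its values were seen, was 0.865, 0 and 0.217 in control pools and 1.99, 1.06 and 4.71 in DEX pools, a difference that did not pass (limma adjusted p = 0.343).

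Gpihbp1, which carries lipoprotein lipase across capillary endothelium, was 0.0787, 0.825 and 2.83 in control pools, 0 in all 3 DEX pools, 0.570, 0.637 and 5.56 at 1 week, and 2.86, 2.96 and 1.08 at 4 weeks. Against the floor of DEX it was at least 6.84-fold higher at 4 weeks (limma adjusted p = 0.0459) and at least 6.70-fold higher at 1 week (adjusted p = 0.101). It passed the filter only through pools of the other groups, where it was higher, so no support is drawn from its tests against DEX. The call at 4 weeks was lost in 7 of the 12 fits that left out 1 pool, namely without control pool 2, any 1 DEX pool or any 1 pool at 4 weeks, with an adjusted p of 0.0679 to 0.197. It was also lost in 7 of 13 other fits, among them pseudocounts of 0.5 (adjusted p = 0.128) and 1 (0.201) and edgeR's quasi-likelihood test (0.0625). The endothelial values given above move with this gene as well. The most abundant of these family genes, the complement inhibitor Cd59a, was 31.7 to 52.6 in DEX pools and 48.95 to 78.4 at 1 week, and was called in no comparison.

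Of the 16 nicotinic receptor subunit genes, partners of the neuronal family members, 14 were tested. Chrnb3 was called higher and Chrna3 lower at 4 weeks against DEX, and the F test called Chrna3. Over all genes, 0.873% and 0.315% were called in these 2 tests. Limma called no subunit in the other comparisons. Array weights, edgeR's likelihood ratio test, DESeq2 and scaling by reads on genes alone called Chrna3 in DEX against control (adjusted p of 0.0184 to 0.0434), and array weights called Chrnb3 at 4 weeks against control (adjusted p = 0.0378). Their median log2 difference at 4 weeks against DEX was 0.81, beside 0.0021 over all genes. Chrnb3, the most abundant subunit gene, was 71.9, 76.9 and 59.6 in control pools, 57.5, 70.4 and 51.1 in DEX pools, 64.7, 102.6 and 59.5 at 1 week, and 113, 141 and 135 at 4 weeks. All pools at 4 weeks lay above every other pool. The difference from DEX was 1.12 ± 0.25 (limma adjusted p = 0.0485), and it lost its call in 9 of the 12 fits that left out 1 pool, all except those without control pool 3 or without pool 2 or 3 at 1 week (adjusted p up to 0.233). It was also lost in 5 of 13 other fits, with the highest adjusted p (0.131) under scaling by reads on genes alone.

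Chrna3 had no read in control pools and at most 1 read at 4 weeks, against 0.409 to 1.49 normalised counts in DEX pools and 0.475 to 1.27 at 1 week. It passed the filter only through the DEX and 1 week pools, where it was high. No support is therefore drawn from its tests, the F test included. In DEX it was at least 2.53-fold higher than the floor of control (limma adjusted p = 0.0764) and at least 2.73-fold higher than the floor of the pools at 4 weeks (adjusted p = 0.0488). The latter call was lost in 10 of the 12 fits that left out 1 pool, kept only without pool 2 or without pool 3 at 1 week. It was also lost in 9 of 12 other fits, among them edgeR's quasi-likelihood test (adjusted p = 0.143), its likelihood ratio test (0.0552) and DESeq2 (0.0712). Chrna4, Chrnb2 and Chrna7, the subunits of the main brain receptors that Lynx1 and Ly6h act on and named here for that role, were called in no comparison.

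**Figure D5:**
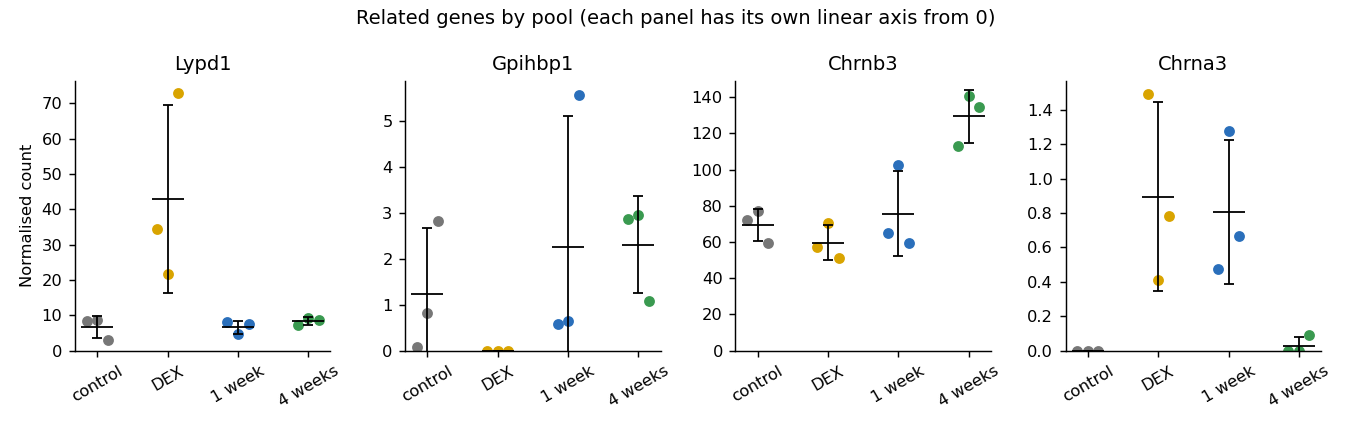
Normalised counts of the 4 related genes that passed a test, in each pool (points), with the mean and SD (line and bars, n = 3, cut at 0) on a linear axis of its own for each gene. Lypd1 stands apart in DEX pools (21.6 to 72.8), Chrnb3 in pools at 4 weeks (113 to 141), Gpihbp1 is 0 in DEX pools, and Chrna3 has no read in control pools.

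The neighbourhood of Ly6g6c on chromosome 17 and the machinery that adds GPI anchors showed no call in any of the 7 tests. Each of these tests called at most 0.873% of all genes. Of 20 class III genes, Ly6g6e among them, 17 were tested. Their median log2 difference at 1 week against control was 0.19 (all genes 0.0022) and at 1 week against DEX 0.25 (all genes 0.029). An unadjusted p under 0.05 was reached by 2 of them in DEX against control, by 1 at 1 week against DEX, by 1 at 4 weeks against DEX and by 1 at 4 weeks against control, beside 6.8%, 10.8%, 9.94% and 6.35% of all genes. The most abundant, the heat shock gene Hspa1b, ranged from 79.6 to 4118 across pools, with both extremes in pools numbered 3, of DEX and 1 week. All 27 listed GPI anchor genes were tested, with a median of 0.080 at 1 week against DEX and -0.093 at 4 weeks against DEX. At an unadjusted p under 0.05 there were 2 of the 27 in each of these comparisons, beside 10.8% and 9.94% of all genes. The most abundant, Pigb, ranged from 114 to 209.

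The genes whose values were most like those of Ly6g6c were ranked by Pearson r over the 12 libraries on the log2 scale, among 16875 other genes above 1 in at least 3 libraries. The 10 highest were Nucb2 (r = 0.960), Plpp5 (0.941), Hmmr (0.925), Tspan13 (0.910), Nmb (0.910), Ccnb2 (0.910), Aga (0.899), Gm15651 (0.896), Ttyh1 (0.895) and Dap (0.894). These points share groups and libraries, so r is a description. Nucb2, a secreted precursor of nesfatin-1, ranged from 73.6 to 95.3 in DEX pools, 112 to 122 in control pools, 120 to 129 at 4 weeks and 154 to 201 at 1 week. Nmb, the neuropeptide neuromedin B, was 1.49 to 2.24 in DEX pools, 11.7 to 20.7 in control pools, 12.04 to 25.4 at 4 weeks and 41.5 to 162 at 1 week. Hmmr and Ccnb2 are genes of dividing cells, and Hmmr was at least 14.7-fold higher at 1 week than the floor of control. Both passed the filter of this ranking mainly through the pools at 1 week, the group for which Ly6g6c was chosen. No support is therefore drawn from their likeness.

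Pomc ranked 47 (r = 0.818). Within the family, Ly6c2, which rests on few reads (r = 0.707), Ly6c1 (0.703), Ly6e (0.686) and Ly6a (0.586) followed Ly6g6c more than Lynx1 (0.399) did, and Ly6g6e (-0.355) and Ly6h (-0.446) were negative. Among the other members, Ly6e went with Ly6a (r = 0.747) and Ly6c1 (0.730). Over all pairs of the 8 tested members, r ran from -0.446 to 0.767, the highest between Ly6c1 and Ly6c2, which share sequence. Of the 10 genes, 5 stayed in the top 10 by Spearman rho and 3 without pool 3 at 1 week.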

How the data were processed

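RNA from eGFP-sorted anterior pituitary cells was sequenced in 12 libraries (4 groups of 3 pools, grouped by their labels). The authors trimmed reads with Trim Galore 0.6.5, aligned them to GRCm38 with STAR 2.7.1a, counted them per Ensembl 98 gene with featureCounts 2.0.0 (mapping quality of at least 20, reverse-stranded) and normalised with edgeR. The deposited signal values are therefore CPM on TMM-scaled library sizes. Whole reads were recovered from 100% of 271881 values above 0 (within 1e-06 reads). All 12 columns were used, and 0 others were present. The library kit does not mark strand.

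The members and lists were chosen with earlier results of these data known. limma 3.58.1 (R 4.3.3, lmFit, eBayes with trend) was fitted to log2(value + 0.1), keeping the 24736 genes for which 3 or more libraries exceeded 0.1, with 4 group means and Benjamini-Hochberg adjustment over all genes (threshold 0.05). The script was tested on simulated data. Alternatives were pseudocounts, filters, scalings, array weights, robust moderation, models of 2 groups, a replicate block, each library left out, edgeR 4.0.16 and DESeq2 1.42.0 on the recovered reads. Named genes were the 9 members, list genes that passed a test or were most abundant, and the 10 genes most like Ly6g6c by Pearson r. PCR reads carried no molecular identifiers, so read numbers and floors cover counting error only. Same-group libraries differed by a chi-square per gene of 15.9 to 145, and 0 pairs were identical. Exons and positions come from GENCODE M21 (GRCm38), and promoters from RefSeq (GRCm38.p6).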

Additional observations from a re-analysis of the deposited data

Results flagged for a closer look

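In 6 differences between withdrawal and DEX, limma's test of the difference itself gave an adjusted p under 0.05. The genes looked at were the members and Lypd1, Gpihbp1, Chrna3 and Chrnb3, which were named because they had passed these tests. The number 6 is therefore not a result. Over all genes, 0.433% were called at 1 week against DEX and 0.873% at 4 weeks against DEX. For Ly6g6c, the difference of 4 weeks from DEX was 3.51 on the log2 scale (limma adjusted p = 0.0290, higher in 3 of 3 pools). Its DEX libraries also entered the difference that chose the gene, so this p is not independent of the choice and nothing is read from it. Lypd1 was -2.53 at 1 week against DEX (adjusted p = 0.0215, limma) and -2.17 at 4 weeks against DEX (limma adjusted p = 0.0393), lower in 3 of 3 pools each time. Gpihbp1 at 4 weeks against DEX was fitted at 4.46 (limma adjusted p = 0.0459), a value that depends on the pseudocount because no DEX pool had a read. As Gpihbp1 passed the filter only through the other groups, this call lends no support either. Chrna3 in the same comparison was -2.85 (limma adjusted p = 0.0488), with at most 1 read in any pool at 4 weeks. It passed the filter only through pools of groups where it was high, so no support is drawn from this call. Chrnb3 was 1.12 higher on the log2 scale in that comparison (limma adjusted p = 0.0485, higher in 3 of 3 pools). Each of these calls was lost when some single pools were left out.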

How the results depend on the processing

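The number of members called was 0 in every fit run for DEX against control, 1 week against control and 4 weeks against 1 week. Across the 4 groups (0 in the reported fit) it was 2 (Ly6a and Ly6c1) in 3 alternatives, namely array weights, DESeq2 and the likelihood ratio test of edgeR, and 0 to 1 when each pool was left out. At 4 weeks against control (0) it was 1 (Ly6a) with array weights and with the likelihood ratio test. At 1 week against DEX (0) it was 1 with array weights (Ly6g6e), with edgeR's quasi-likelihood test and with DESeq2 (Ly6c1 in both), 2 with the likelihood ratio test (Ly6a and Ly6c1), and 0 to 1 with each pool left out. At 4 weeks against DEX (1, Ly6g6c) it was 0 with a pseudocount of 0.5, with a pseudocount of 1 and with only the 2 groups compared. It was 2 with scaling by reads on genes alone, 4 with array weights, 4 with the likelihood ratio test, 3 with DESeq2, and 0 to 2 with each pool left out. The cause was not tested. Ly6g6c was chosen on these libraries, so nothing is read from its call.

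Over 49 log2 differences of named genes and 1217 fits, 1104 kept their direction and side of the threshold, 77 lost the call, 30 gained one, 2 moved and 4 turned sign. Differences smaller than their own SE that passed in no fit are not in these counts. The difference of Lynx1 at 1 week from control turned to -0.041 with array weights and ranged from -0.032 to 1.02 with each pool left out, the lowest without pool 2 at 1 week. That of Lypd1 at 4 weeks from control ranged from -0.013 (without control pool 3) to 0.72 with each pool left out, and that of Chrnb3 at 1 week from DEX was -0.062 with scaling by reads on genes alone. The difference of Ly6g6c at 1 week from DEX was 5.59 with a pseudocount of 0.5 and 4.87 with 1, against 6.89. Scaling by reads on genes alone, chosen after seeing the data, moved the median of all genes by up to -0.33 (1 week against DEX). It also moved the share of higher calls over all genes, from 26 of 107 to 24 of 267 at 1 week against DEX and from 102 of 216 to 40 of 228 at 4 weeks against DEX.

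Correlations between pools could not settle whether the replicate numbers pair them. Among same-numbered pairs r was -0.29 to 0.40, with 7 of 18 over 0.1, and among other pairs it was -0.27 to 0.38. A replicate block left the count of called members at 1 at 4 weeks against DEX and at 0 elsewhere, and 3 named differences lost their call (Lypd1 in DEX against control, adjusted p = 0.0646, and at 4 weeks against DEX, adjusted p = 0.0533, and Chrna3 at 4 weeks against DEX, adjusted p = 0.0662, all by limma). Over all genes, the F test called 78 with limma, 158 with the quasi-likelihood test, 1031 with the likelihood ratio test and 734 with DESeq2. At 4 weeks against DEX these numbers were 216, 214, 652 and 655. Depth limits Ly6c2, Ly6d, Chrna3 and the DEX values of Ly6g6c and Gpihbp1, which rest on few reads.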
